A study of Mus musculus with 4 samples.

Results

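The genes described here encode the ubiquitin-conjugating enzymes (E2 enzymes, symbols beginning with Ube2) and the UBR ligases. They were taken by name from the count tables, leaving out Ubr3, and a gene was kept where at least 10 reads were counted in at least 2 libraries. Of 42 matching rows, 38 met the count rule, 33 of them Ube2 genes and 5 of them Ubr genes, among 32531 gene rows in all. Ube2d2b and Ube2u had 0 counts in both IP libraries and at most 7 in an input library, and Ube2dnl1 and Ube2dnl2 had 0 counts throughout. Ube2cbp, which was kept by its name, encodes an E2-binding ligase and not an E2 enzyme.

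RNA came from the cerebral cortex of adult mice of the Cbln1-TRAP line NIDA030, which carries the ribosomal protein Rpl10a fused to EGFP. The line is named for Cbln1, which encodes a secreted synaptic organiser. Tagged polysomes were captured with antibodies against EGFP to give the 2 ribosome-bound libraries (IP 2 and IP 4), and the 2 input libraries (input 2 and input 4) hold total RNA of the cortex homogenate. All 4 libraries carry the transgene, so no untagged control enters the comparison. The series describes the profiled cells as neurons and does not name their type, and the labels do not say whether the libraries of a group came from separate mice. The p-values therefore speak of the spread among these 4 libraries alone, and how much of that spread is technical was not tested. Xist, the RNA of the inactive X chromosome of female cells, had 0 counts in IP 2 and 2 in input 2, but 20 in IP 4 and 132 in input 4, so libraries of 1 number were alike in it and those of 1 group were not. The library descriptions place IP on lane 1 and input on lane 2, and lane and group cannot be told apart.

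Gene counts ran from 39750468 to 47567384 per library. Cbln1 stood at 68.7 to 99.3 CPM in IP against 8.55 to 11.9 CPM in input, where CPM is the count scaled to a common library size after TMM, a factor for differences in composition. Of 12 pan-neuronal markers 10 rose in IP and 1 fell, where 23.4% of all genes tested rose and 22.4% fell. Of 6 glutamatergic markers 5 rose and 0 fell, of 6 GABAergic markers 0 rose and 3 fell, and of 7 oligodendrocyte markers 2 rose and 4 fell. Of 7 astrocyte markers 2 rose and 3 fell, and their summed level was 2010 to 2054 CPM in IP against 2908 to 3011 CPM in input. All 3 erythroid markers measured fell, from a summed 9.81 to 10.03 CPM in input to 1.68 to 3.59 CPM in IP. The part of these shifts in the values below was not tested. In bulk RNA, fewer cells of a type and less RNA per cell cannot be told apart. Between IP and input, the make-up of the captured cells and the binding of an RNA to ribosomes within a cell cannot be told apart either.

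Ubiquitin is passed along a relay. An E1 enzyme activates it, an E2 enzyme carries it as a thioester on a catalytic cysteine, and an E3 ligase brings the loaded E2 to the protein that is to be marked. E2 enzymes largely set the kind of chain that is built, and a few of them carry relatives of ubiquitin such as SUMO and NEDD8 instead. UBR ligases share the UBR box, which in several of them reads destabilising residues at the start of a protein (N-degrons). In neurons the system is known for turnover of synaptic proteins.

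The active site is the part that E2 enzymes share most closely, and its codons were not used to choose the genes. Most E2 enzymes carry histidine, proline and asparagine in a row ahead of the catalytic cysteine. The coding sequences were searched in frame for CACCCNAAC, CACCCNAAT, CATCCNAAC or CATCCNAAT, the codons of these 3 residues, on the coding strand only. They were found in 19 of 33 Ube2 genes, and in 17 of them a TGC or TGT codon for cysteine followed 10 codons after the first. Of 21581 protein-coding genes, 3.88% held the 3 codons and 0.324% held them with that cysteine codon. The following stretches of 33 bases run from the first codon to the cysteine codon in well-counted genes that hold all 3, with the matching codons and the cysteine codon in capitals (GENCODE vM21 transcripts, GRCm38).
Ube2d1, chr10:71258250-71258282, minus strand: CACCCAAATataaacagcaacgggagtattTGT
Ube2d3, chr3:135459999-135460031, plus strand: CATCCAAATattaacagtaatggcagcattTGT
Ube2n, chr10:95541403-95541435, plus strand: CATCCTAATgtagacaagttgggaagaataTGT
Ube2l3, chr16:17160042-17160074, minus strand: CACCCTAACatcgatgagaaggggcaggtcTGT
Ube2m, chr7:13036226-13036258, minus strand: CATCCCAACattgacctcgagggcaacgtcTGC

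In other Ube2 genes 2 of the 3 codons matched ahead of a cysteine codon at the same distance, a looser pattern that 5.47% of protein-coding genes hold. It is shown for Ube2o, Ube2z and Ube2w, whose levels changed in IP, and for Ube2e3, which was not called, with the unmatched codon in lower case. Ube2z holds a second such stretch, at codon 235, and the one printed is at codon 180.
Ube2o, chr11:116539962-116539994, minus strand: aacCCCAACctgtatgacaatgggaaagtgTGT
Ube2z, chr11:96060951-96060983, minus strand: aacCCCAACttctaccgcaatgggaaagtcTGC
Ube2w, chr1:16585369-16585401, minus strand: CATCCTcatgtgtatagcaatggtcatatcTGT
Ube2e3, chr2:78918711-78918743, plus strand: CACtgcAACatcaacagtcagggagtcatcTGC

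Most of the genes had similar levels in ribosome-bound and total RNA. Of the 38 genes, 5 rose in IP, 3 fell and 30 did not pass a Benjamini-Hochberg adjusted p of 0.05 (edgeR quasi-likelihood test over 16600 genes), so 21.1% were called where 45.8% of all genes tested were called. Over all genes 23.4% rose and 22.4% fell. The genes that rose were Ube2o, Ube2z, Ubr7, Ube2ql1 and Ube2q1, and those that fell were Ube2w, Ube2q2 and Ubr4. The median log2 fold change was 0.0045 over the 38 genes and -0.04 over all genes tested. Estimates within 1.5-fold of input were obtained for 34 of the 38 genes.

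On the TMM scale the share was also low among well-counted genes. A mean of at least 5 CPM was reached by 33 of the 38 genes, and all 8 called genes were among them (24.2%), where 54.8% of all genes at that level were called. Of the 30 genes that were not called, 24 had a 95% interval of the fold change that lay within 1.5-fold either way, and 3 had one that reached beyond 2-fold. IP lay above input in both libraries for 13 genes, below for 10, and overlapped for 15, so 60.5% did not overlap where 73.0% of all genes tested did not (35.3% above and 37.8% below). The members together held 0.263% to 0.277% of gene counts in IP against 0.308% to 0.318% in input. After scaling, their sum was 3015 and 2890 CPM in IP 2 and IP 4 against 2805 and 2918 CPM in input 2 and input 4, which overlap.

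**Figure D1:**
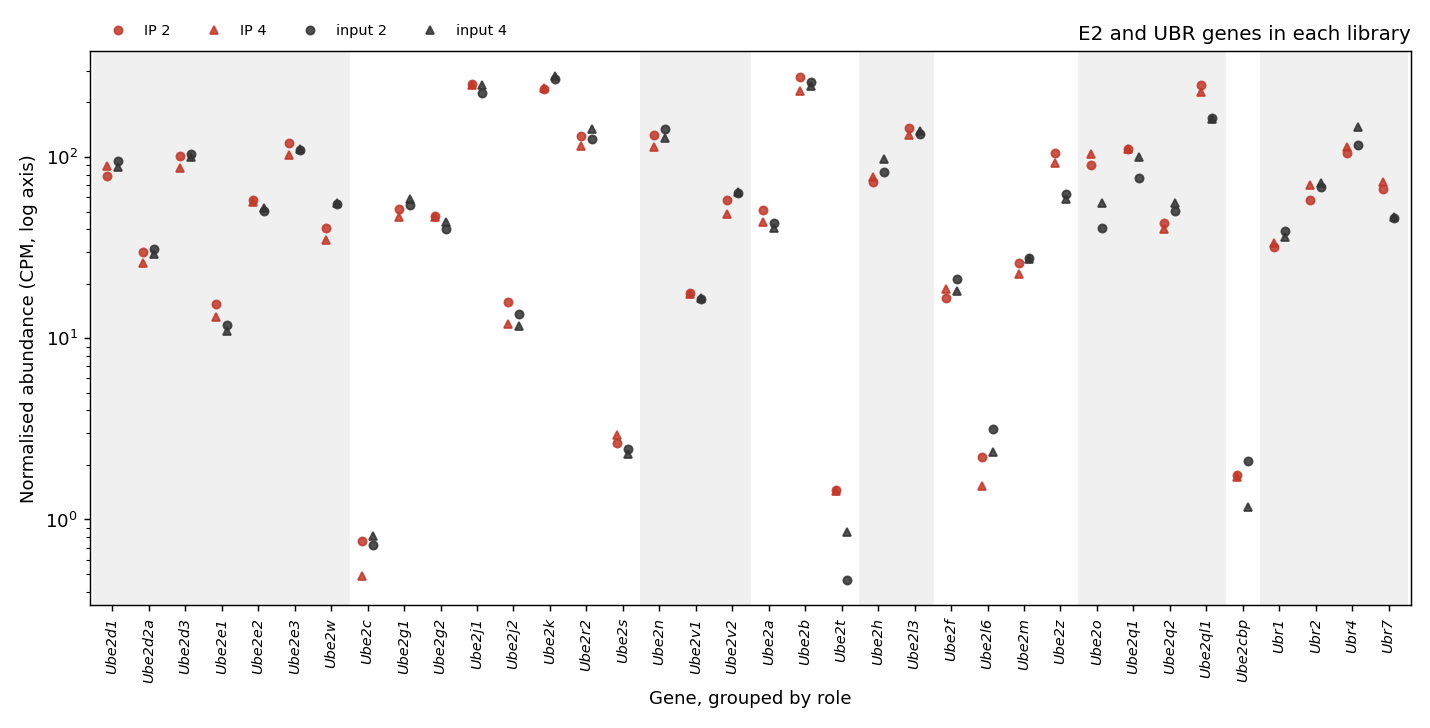
Normalised abundance (CPM, log axis) of 36 of the 38 genes in each library, with IP in red, input in dark grey, circles for number 2 and triangles for number 4, and shading that separates roles. Red and grey points lie close together for most genes. Both red points lie above both grey points for the called Ube2o, Ube2z, Ube2ql1, Ubr7 and Ube2q1. The same holds for Ube2a, Ube2e1, Ube2e2, Ube2g2, Ube2s, Ube2t and Ube2v1, which were not called.

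The level depended on scaling. When libraries were scaled by their sizes alone, the median log2 fold change over all genes shifted by -0.26, and 4 of the 38 genes rose and 19 fell. The members' share called was then 60.5%, above the 48.6% of all genes, so the order of the shares reversed. Relative to the median of all genes, the members' median stood at 0.04 under either scaling. Scaling shifts every gene nearly alike, so this difference could hardly change with it. Over the other alternatives it ran from -0.04 with the stricter count filter to 0.12 without IP 4. Directions below are relative to the TMM scale, and those of Ube2o, Ube2z, Ubr7, Ube2ql1, Ube2w, Ube2q2 and Ubr4 were called the same way with sizes alone.

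**Figure D2:**
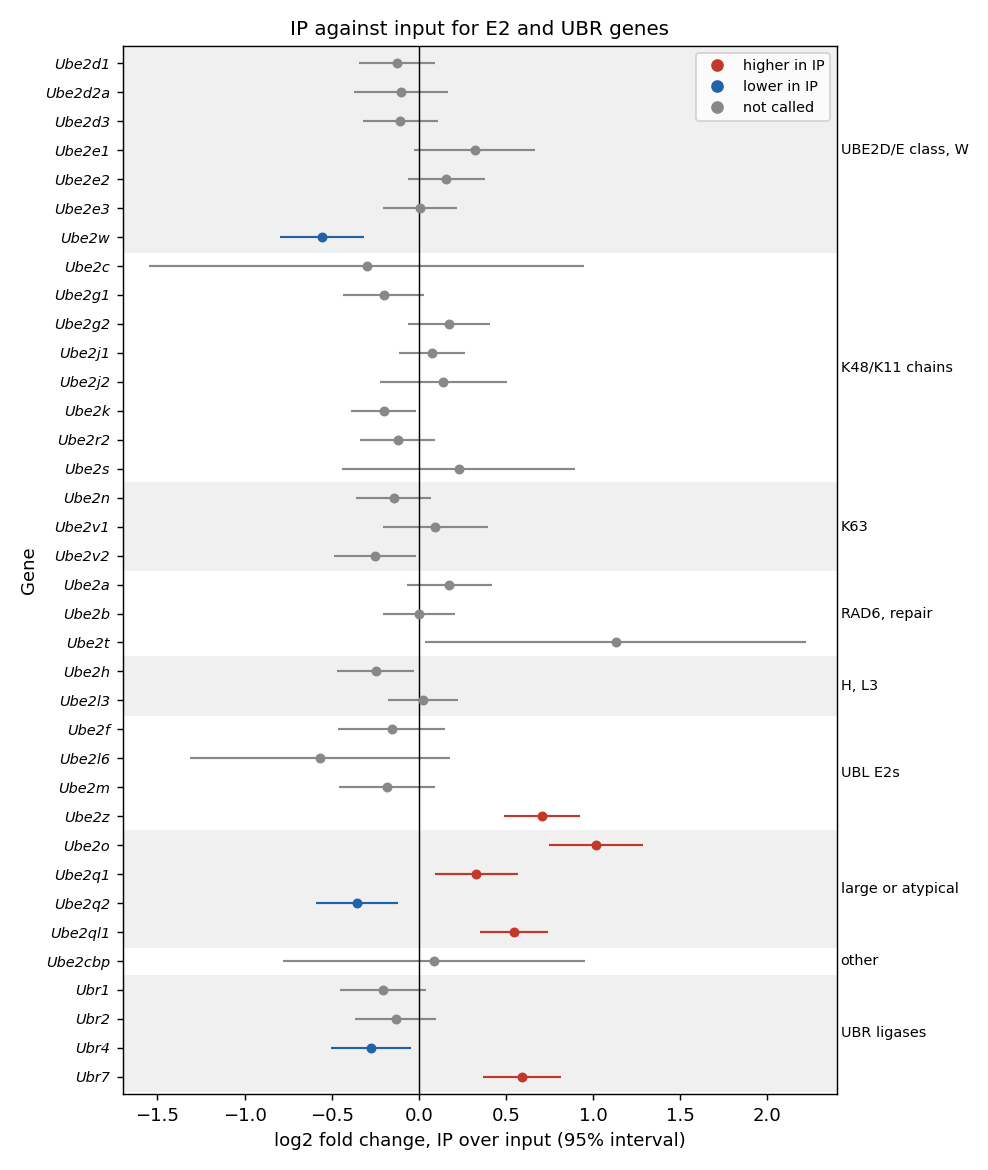
Log2 fold change of IP over input for 36 of the 38 genes, with its 95% interval as a bar and roles named at the right. Called genes are in red (higher) and blue (lower), and most grey intervals cross 0. Those of Ube2k, Ube2v2 and Ube2h end just below 0 and that of Ube2t just above, and the intervals of Ube2c, Ube2s, Ube2t, Ube2l6 and Ube2cbp, which had few counts, are wide.

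The large and atypical E2 genes held 4 of the 8 calls. All 4 of them were called, 3 higher and 1 lower, with a median log2 fold change of 0.44, where 45.8% of all genes tested were called. Ube2o, a large hybrid enzyme that acts as E2 and E3 at once and marks unassembled ribosomal and globin proteins, stood at 90.7 and 103.7 CPM in IP 2 and IP 4 against 40.5 and 55.6 CPM in input 2 and input 4. Each IP value exceeded each input value, and the inputs differed more than the IPs. The fold was 2.02, a log2 fold change of 1.02 with a standard error of 0.13 (edgeR adjusted p = 3.70e-06), the only called member with at least a 2-fold change. Its log2 value ran from 0.76 with sizes alone to 1.27 without input 4, and it was called under each of the 12 alternatives run. Ube2o (ENSMUSG00000020802.8) lies on the minus strand of chromosome 11 of GRCm38, from 116537740 to 116581447, with no annotated exon of another gene overlapping it.

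The Ube2q family, whose members Ube2q1 and Ube2q2 carry a long N-terminal extension before the catalytic domain, split. Ube2ql1, a Ube2q-like gene, stood at 249 and 228 CPM in IP against 164 and 163 CPM in input. The 2 groups were well apart, and the log2 fold change was 0.54 (SE 0.09, edgeR adjusted p = 9.25e-05). Ube2q1 was at 111 CPM in both IP libraries against 76.8 and 99.6 CPM in input 2 and input 4, or 0.33 on the log2 scale with SE 0.11 (edgeR adjusted p = 0.0237). Its call rested on input 2: without that library the value was 0.16 (edgeR adjusted p = 0.380), and it was also lost with sizes alone (0.07, adjusted p = 0.623) and with the trend on transcript length and GC content removed (0.23, adjusted p = 0.114). Ube2q2, its close paralog, went the other way, with 43.3 and 40.03 CPM in IP against 50.7 and 55.9 CPM in input. The IP libraries lay below the inputs, at -0.35 on the log2 scale with SE 0.11 (edgeR adjusted p = 0.0150), and it no longer passed when IP 4 (-0.29, adjusted p = 0.0985) or input 4 (-0.27, adjusted p = 0.155) was left out. The 3 genes lie on chromosome 13 (69702832 to 69739889, minus strand), chromosome 3 (89773616 to 89784000, plus strand) and chromosome 9 (55148854 to 55207529, plus strand) in the order named.

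Among E2 genes of ubiquitin-like proteins, Ube2z was the only 1 of 5 that was called. Ube2z takes ubiquitin or FAT10 from the E1 enzyme Uba6 alone. It was counted at 104.7 and 93.1 CPM in IP against 62.2 and 59.04 CPM in input, 1.63-fold higher (log2 fold change 0.71, SE 0.10, edgeR adjusted p = 1.91e-05). The groups did not overlap, and the gene was called under all 12 alternatives, from 0.45 with sizes alone to 0.80 without IP 4. Ube2z (ENSMUSG00000014349.7) lies on chromosome 11, minus strand, at 96047432 to 96065388. Ube2m and Ube2f, the E2 enzymes of NEDD8, had log2 fold changes of -0.18 (95% interval -0.46 to 0.09) and -0.16 (-0.46 to 0.15). Ube2l6, which carries the interferon-induced modifier ISG15, was low, at 1.53 to 2.21 CPM in IP against 2.36 to 3.17 CPM in input, and its interval ran from -1.31 to 0.18.

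The E1 enzymes load these carriers. Of 9 E1 genes tested 7 rose and 0 fell, with a median log2 fold change of 0.92, and 6 rose and 0 fell with sizes alone. Over all genes tested 23.4% rose and 22.4% fell, or 13.0% and 35.6% with sizes alone. Uba6, the E1 of Ube2z, stood at 46.2 and 55.1 CPM in IP against 21.1 and 29.8 CPM in input (log2 fold change 0.996, SE 0.15, edgeR adjusted p = 2.20e-05). Uba2 and Sae1, the subunits of the SUMO E1, rose by 1.38 (SE 0.11) and 0.92 (SE 0.10), and Nae1 and Uba3, the NEDD8 E1 that hands on to Ube2m and Ube2f, rose by 0.85 (SE 0.11) and 0.47 (SE 0.10). Uba1, the main ubiquitin E1, rose by 0.95 (SE 0.10), from 213 and 243 CPM in input to 409 and 472 CPM in IP. Whether the E1 and E2 values differ from each other was not tested.

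The E2 genes of the chain-initiating class were mostly not called. Ube2w, which attaches ubiquitin to the N-terminus of proteins, was the exception among 7 genes, with 40.7 and 34.8 CPM in IP against 54.9 and 56.1 CPM in input. Both IP libraries lay below both inputs, a 1.47-fold reduction (log2 fold change -0.56, SE 0.12, edgeR adjusted p = 0.000656). Ube2w (chromosome 1, 16540790 to 16619489, minus strand) overlaps an exon of the opposite-strand gene Gm38342 over 253 bases, and the strand setting of the counting is not given in the sources used here. Ube2d1, Ube2d2a and Ube2d3, general-purpose partners of many RING ligases, had log2 fold changes of -0.13, -0.10 and -0.11, with SE of 0.10, 0.13 and 0.10. Their coding sequences are of 1 length and close in sequence: Ube2d2a and Ube2d3 share 381 of 441 bases and Ube2d1 and Ube2d3 share 341. Ube2e1, Ube2e2 and Ube2e3 were at 0.32, 0.16 and 0.01 (SE 0.16, 0.11 and 0.10).

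The builders of K48 and K11 chains, the signals for the proteasome, held no called gene among 8. Ube2k, which builds K48 chains, had the highest mean CPM over the 4 libraries of the 38 genes, though not within IP, at 238 and 239 CPM in IP against 271 and 278 CPM in input. IP lay below input in both libraries, but the log2 fold change of -0.20 (SE 0.09) did not pass (edgeR adjusted p = 0.0692). It was called lower with the stricter count filter (edgeR adjusted p = 0.0177) and with the replicate number as a block (0.0287). Ube2j1, which serves degradation at the endoplasmic reticulum, overlapped between groups at 253 and 248 CPM in IP against 227 and 249 CPM in input. Ube2g1, Ube2g2, Ube2j2 and Ube2r2 lay between -0.20 and 0.17. Ube2c and Ube2s, the pair used by the anaphase-promoting complex in dividing cells, were scarce, with 21 to 35 and 100 to 126 counts per library.

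For K63 chains, which serve signalling and trafficking, Ube2n and its inactive partners Ube2v1 and Ube2v2 were measured. Ube2n was counted at 132 and 113 CPM in IP against 143 and 128 CPM in input, and the groups overlapped (log2 fold change -0.15, SE 0.10, edgeR adjusted p = 0.268). Ube2v2 stood at 58.1 and 48.7 CPM in IP against 63.3 and 63.8 CPM in input, below input in both libraries without passing the test (-0.25, SE 0.11, edgeR adjusted p = 0.0753). It passed with the stricter filter (edgeR adjusted p = 0.0235) and with the block (0.0213). Ube2v1 was at 17.8 and 17.5 CPM in IP against 16.5 and 16.6 CPM in input (0.09, SE 0.14). It shares 1673 exonic bases with the read-through gene Gm20431, so some of its reads may have been dropped as ambiguous.

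The RAD6 class acts in DNA repair and histone marking. Ube2b had the highest level per length of the 38 genes in both groups, 141.02 CPM per kb of transcript in IP and 140.95 in input. Its values per library were 275 and 231 CPM in IP against 258 and 247 CPM in input, with IP on either side of input and a log2 fold change of 0.00065 (95% interval -0.20 to 0.21). Ube2a, its X-linked paralog, was at 50.8 and 44.1 CPM in IP against 43.3 and 40.8 CPM in input (0.17, SE 0.12, edgeR adjusted p = 0.238). Ube2t, which serves the Fanconi anaemia repair pathway, rested on 55 and 62 counts in IP against 21 and 37 counts in input. Its log2 fold change of 1.13 had a standard error of 0.52 and did not pass (edgeR adjusted p = 0.0853). Ube2l3, the partner of parkin and other RBR and HECT ligases, overlapped at 145 and 133 CPM in IP against 134 and 139 CPM in input. Ube2h, the partner of the CTLH ligase, was nearest to the threshold among genes not called, with 73.3 and 77.5 CPM in IP, 82.2 and 96.96 CPM in input, or -0.25 on the log2 scale with SE 0.11 (edgeR adjusted p = 0.0636). The stricter filter (edgeR adjusted p = 0.0176) and the block (0.0177) called it lower. Ube2cbp was at 1.76 and 1.71 CPM in IP against 2.09 and 1.18 CPM in input.

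Of the 5 UBR ligases 1 rose, 1 fell and 3 were not called, and the median was -0.13. Over all genes tested 23.4% rose and 22.4% fell, with a median of -0.04, so these counts do not set the UBR ligases apart. Ubr7, which carries a PHD finger beside its UBR box, stood at 66.5 and 73.2 CPM in IP against 45.9 and 46.7 CPM in input, 1.51-fold higher (log2 fold change 0.59, SE 0.11, edgeR adjusted p = 0.000172). The groups did not overlap. Ubr7 (GRCm38 chromosome 12, 102757967 to 102777707, plus strand) shares 212 exonic bases with the opposite-strand gene Gm20604. Ubr1 and Ubr2, the classical N-degron readers, were at 31.8 and 33.4 CPM in IP against 38.8 and 36.3 CPM in input, and at 57.9 and 69.9 CPM in IP against 68.3 and 71.9 CPM in input. Their log2 fold changes of -0.21 (95% interval -0.45 to 0.04) and -0.13 (-0.37 to 0.10) did not pass.

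Ubr4 encodes a giant protein of 5180 residues that extends ubiquitin chains. It was counted at 104.9 and 113 CPM in IP against 117 and 147 CPM in input, and both IP libraries lay below both inputs. Its log2 fold change of -0.28 with SE 0.11 (edgeR adjusted p = 0.0463) was the call nearest to the threshold. It was not called with DESeq2 (-0.26, adjusted p = 0.0778), without input 4 (-0.09, adjusted p = 0.618) or without IP 2 (-0.21, adjusted p = 0.181), and it turned to 0.021 with the trend on transcript length and GC content removed. Ubr4 (chromosome 4, 139352609 to 139489588, plus strand) shares 109 exonic bases with Emc1 on its own strand. Ubr3, which the choice of genes leaves out, stood far from the 5 at 5936 and 6220 CPM in IP against 248 and 283 CPM in input.

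Partners of the UBR ligases moved in both directions. Of 12 genes of the N-degron pathway 8 rose and 2 fell, or 3 and 3 with sizes alone. The shares of all genes tested were 23.4% and 22.4%, or 13.0% and 35.6% with sizes alone. Kcmf1, a ligase that works with Ubr4, rose by 0.63 (SE 0.10, edgeR adjusted p = 3.26e-05), and Ate1, which adds arginine to make substrates for Ubr1 and Ubr2, rose by 0.40 (SE 0.10). Ntan1, which deamidates N-terminal asparagine in the same branch, fell by 0.82 (SE 0.13). Sqstm1, an autophagy receptor that binds N-degrons, stood at 759 and 619 CPM in IP against 122 and 106 CPM in input (log2 fold change 2.59, SE 0.11), and Metap1, which removes the initiator methionine, rose by 1.09 (SE 0.10).

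The lists of deubiquitinases and ligases were counted in the same way. Of 28 deubiquitinases 16 rose and 1 fell (median 0.34), with Usp5, Uchl1 and Usp14 higher by 1.38, 1.22 and 1.08 (SE 0.10, 0.09 and 0.10), and 9 rose and 6 fell with sizes alone. Of 21 cullin-RING genes 14 rose and 2 fell (median 0.44), with Ddb1, Cul2 and Cul3 higher by 0.75, 0.72 and 0.64, or 7 and 5 with sizes alone. Of 24 HECT ligases 11 rose and 6 fell, with Wwp2 at 0.81 and Smurf2 and Hectd2 at -0.96 and -0.81, or 2 and 8 with sizes alone. Of 29 RING ligases known to work with particular E2 enzymes 8 rose and 5 fell, or 4 and 9 with sizes alone, with Maea at 1.01, Anapc2 at 0.83 and Gid4 at -1.06. Maea and Gid4, which moved apart, both belong to the CTLH ligase served by Ube2h. Among 8 E2 enzymes and E2-like proteins of other names 4 rose and 1 fell, with Tsg101, an inactive E2 relative of endosomal sorting, at 0.71, Atg10 at 0.47 and Aktip at -0.47, or 1 and 1 with sizes alone. Of the 4 ubiquitin genes 0 were called by edgeR (1 at an unadjusted p under 0.05), DESeq2 called 0, and 5 of the 12 alternatives called 1. Ubb, the most abundant, was at 10.26 and 9.30 CPM in IP against 7.81 and 6.19 CPM in input (log2 fold change 0.48, edgeR adjusted p = 0.0510).

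Among the Ube2 genes, the calls of the main analysis fell on 1 side when read against the active-site codons. Those of several alternatives did not. Of the 19 Ube2 genes with all 3 codons 0 were called by edgeR, and of the 14 without them 6 were called, 4 higher and 2 lower. Ube2o and Ube2z, the called Ube2 genes that rose most, have the codon aac in place of the histidine codon in the stretches printed above. The called Ube2q1, Ube2q2 and Ube2ql1 hold neither pattern. Ube2t, which holds all 3 codons, had a higher estimate than either (1.13, SE 0.52) and was not called. Ube2d1, Ube2d3, Ube2n, Ube2l3 and Ube2m are among the 19. This split covers Ube2 genes alone. Of the 5 Ubr genes 3 also hold the 3 codons, without the cysteine codon 10 codons on, and the called Ubr4 is 1 of them. The split was noticed after the values were seen, and no test of it was made. DESeq2 gave 0 and 6. The split did not hold with sizes alone, where 12 of the 19 and 7 of the 14 were called, nor with the stricter count filter or the replicate number as a block, each of which called 2 of the 19 (Ube2h and Ube2k) and 7 of the 14. Without input 2, Ube2h was called among the 19. At an unadjusted p under 0.05 by edgeR, 3 of the 19 passed (Ube2h, Ube2k and Ube2t).

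The Ube2 genes without the 3 codons also encode longer proteins, with a median of 281.5 residues against 165. Of the 7 Ube2 genes with at least 300 residues 5 were called, and of the 26 shorter ones 1 was, where 45.8% of all genes tested were called. The length of this division was chosen after the values were seen. With sizes alone 4 of the 7 and 15 of the 26 were called, and with the stricter filter or the block 5 of the 7 and 4 of the 26. Across the 33 Ube2 genes the log2 fold change and the log2 protein length had a Pearson r of 0.55 and a Spearman rho of 0.40, and over 14301 protein-coding genes the values were 0.05 and 0.04. With transcript length the coefficients were -0.11 and -0.24, and with transcript GC content 0.36 and 0.40. These are across genes of the same 4 libraries, and genes are not independent replicates. With the 5 Ubr genes added, which are long and not higher as a group, the r for protein length was 0.15 (rho 0.26).

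**Figure D3:**
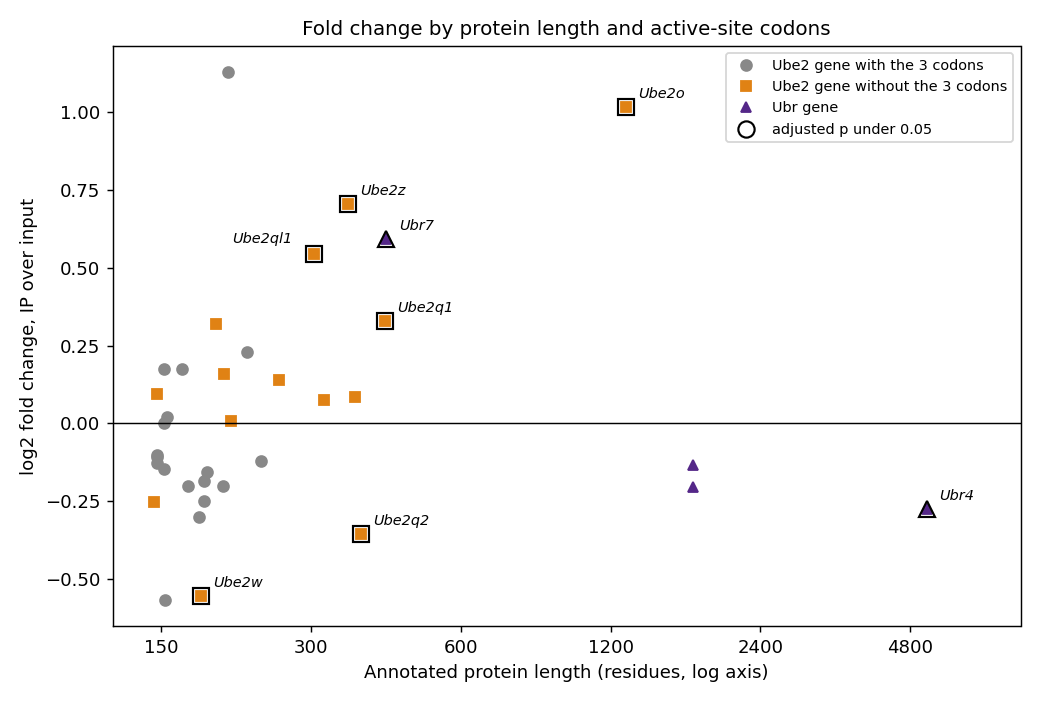
Log2 fold change of IP over input for 36 of the 38 genes against annotated protein length (residues, log axis), with Ube2 genes that hold the 3 active-site codons as grey circles, other Ube2 genes as orange squares and Ubr genes as purple triangles. Outlined symbols are the 8 called genes, none of which is a grey circle, and Ube2o stands furthest to the right among Ube2 genes.

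Levels per length ordered the genes almost alike in both groups. The leading genes in input were Ube2b, Ube2j1, Ube2d1, Ube2ql1 and Ube2k, at 140.95, 67.4, 63.97, 61.2 and 56.1 CPM per kb. In IP they were Ube2b, Ube2ql1, Ube2j1, Ube2d1 and Ube2e3, at 141.02, 89.3, 71.04, 58.6 and 49.3 CPM per kb. Ube2ql1 passed from the fourth place in input to the second in IP, Ube2z from place 20 to place 13, Ubr7 from place 23 to place 16 and Ube2o from place 25 to place 17. In the other direction Ube2w went from place 13 to place 19 and Ube2q2 from place 19 to place 24. Lengths are those of the longest annotated protein-coding transcript, so a level per length is uncertain where shorter isoforms are used.

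**Figure D4:**
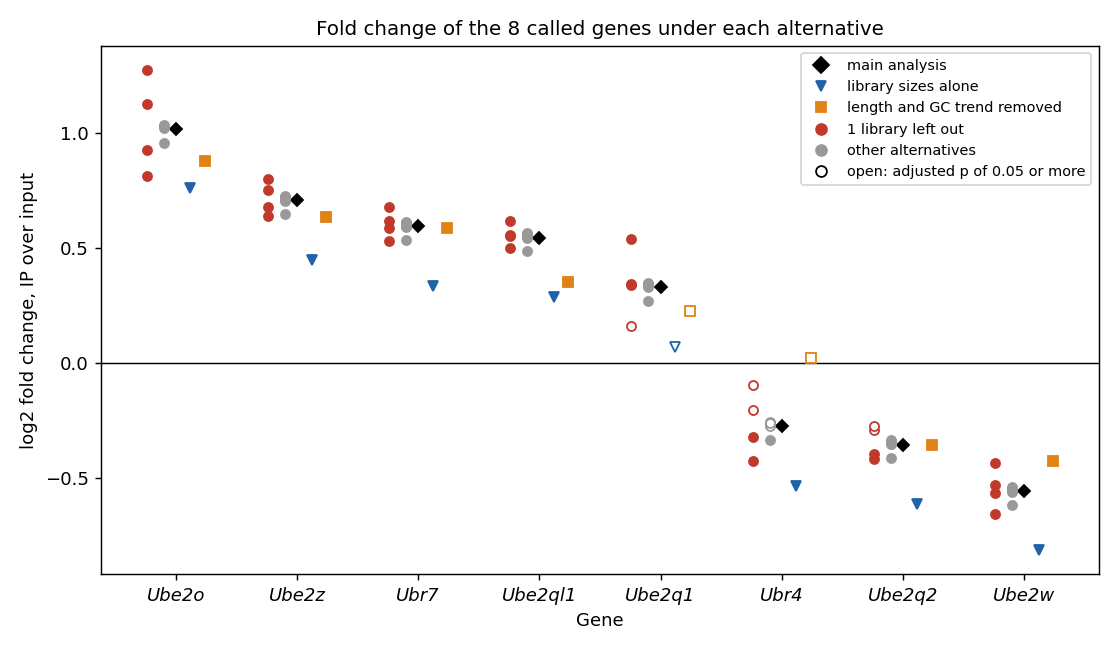
Log2 fold change of the 8 called genes in the main analysis (black diamonds), with sizes alone (blue triangles), with the trend on length and GC content removed (orange squares), with 1 library left out (red) and under the other alternatives that change the estimate (grey). Open symbols have an adjusted p of 0.05 or more, and they occur for Ube2q1, Ubr4 and Ube2q2 and not for the other 5 genes.

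Some of the genes share sequence with other annotated genes. A stretch of at least 100 bases with at least 95% identity to a transcript of another gene was found for 18 of the 38 genes, among them 3 of the 8 called genes. These matches include genes that overlap at the same place and are not copies elsewhere. For the called Ube2w and Ubr7 the only match was the opposite-strand gene that shares exonic bases with them (Gm38342 and Gm20604). The called Ube2q2 matched Gm4895, which does not overlap its exons. Reads that align to several places were not assigned, so genes that share a stretch with another place may be undercounted in all 4 libraries. Examples are Ube2d2a, Ube2d3, Ube2f, Ube2h, Ube2j2, Ube2l3, Ube2n, Ube2v1, Ube2v2 and Ube2q2, whose matches are mostly genes of provisional names (Gm). Such reads were 37.0% and 38.0% of records in IP 2 and IP 4 against 32.1% and 30.7% in input 2 and input 4. Ambiguous reads were 1.54% in both IP libraries against 5.07% and 5.09% in input. Whether these losses bear on the fold changes was not tested. Among called genes Ube2o, Ube2z, Ube2ql1, Ube2q1 and Ubr4 had no such stretch.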

How the data were processed

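Each library has 1 deposited file of raw read counts by gene symbol, in whole numbers. The submitters' processing notes name STAR 2.0.0e and HTSeq, with mm10 as the genome. Which annotation, strand setting and kit were used is not stated there. Rows that name no gene (45.9% to 52.0% of records) were left out. Counts were fitted with edgeR 4.0.16 in R 4.3.3: TMM, filterByExpr by group (minimum count 10, minimum total 15), quasi-likelihood test without a block, two-sided, adjusted over 16600 genes, at 0.05. The biological coefficient of variation was 12.5%, with 2 residual degrees of freedom. The standard error is the log2 fold change over the square root of F.

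Alternatives were DESeq2 1.42.0, its size factors in edgeR, library sizes alone, other count filters, edgeR's test for changes beyond 0.5 in log2, the replicate number as a block, omission of each library in turn, and removal of a loess trend on transcript length and GC content. Lengths, coordinates and transcript sequences came from GENCODE vM21, whose GRCm38 assembly is also called mm10. Stretches shared with other genes were sought with blastn 2.17.0. The fit was tested on simulated data, with changes set in genes of at least 5 CPM. It called 10% of 1.25-fold changes, 58% of 1.5-fold changes and 96% of 2-fold changes. Of 16400 unchanged genes 8 were called. Changes were set in 50 genes at each fold, whereas 45.8% of the genes tested were called in the data. The adjustment is stricter where few genes change, so the shares recovered do not carry over to the data. A gene that was not called may still differ by a small fold. Values per library were given for Ubr genes, up to 8 called members in each direction, the 4 most abundant, those nearest the threshold and roles with up to 3 members, and up to 3 genes of each pathway list, with further genes, chosen after their values were seen, where they pair with a member (Sae1, Nae1, Uba3, Kcmf1, Ate1). Members and lists were chosen with earlier results of these data known. Replicates differed far beyond sampling noise (chi-square per degree of freedom 18.1 in IP and 12.5 in input). Results of 2 members are not reported here, and these members count in the totals only.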

Additional observations from a re-analysis of the deposited data

How the results depend on the processing

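Of the 8 called genes, Ube2o and Ube2z were called under all 12 alternatives, and Ube2ql1, Ube2w and Ubr7 under all but the test against a log2 fold change of 0.5. Of the 30 others, 13 were called in none, 13 only with library sizes alone, and 4 (among them Ube2h, Ube2k and Ube2v2) elsewhere too. With library sizes alone 19 members fell, with a median of -0.25, and over all genes 2151 rose and 5910 fell (13.0% and 35.6%). Ube2b (-0.26), Ube2e3 (-0.25) and Ube2l3 (-0.24) then turned negative and were called, since every value moved down with the scaling. Members that fell numbered 6 with the stricter filter. Against a log2 fold change of 0.5, 2 members rose and 0 fell, and 1279 genes rose and 1705 fell. Ubr4 turned to 0.021 with the trend on length and GC content removed. Leaving out 1 library gave 4 to 6 members that rose and 1 to 4 that fell, with 1 without input 4. Median log2 fold changes then ran from -0.04 to 0.09, and over all genes 3323 to 3720 rose and 2670 to 3421 fell. Apart from these, signs changed with no call either way in 19 genes. The causes were not tested.

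The labels number the libraries 2 and 4 in each group. With the number as a replicate block 6 members fell and 5 rose, and 4314 and 4037 of all genes rose and fell. The added members were Ube2h, Ube2k and Ube2v2. Deviations of same-numbered libraries had a correlation of 0.05 across genes and 0.24 across the members, and Xist counts were alike by number. The labels do not say whether a number marks a mouse, so the pairing was not taken as given. Depth limits Ube2c, Ube2s, Ube2t, Ube2l6 and Ube2cbp, each under 5 CPM on average.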
